A study of Mus musculus with 2 samples.

Results

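The barcodes described here are those of skeletal muscle in a single-cell RNA preparation of mouse dura mater, the outer membrane of the brain. They were chosen on raw counts of unique molecular identifiers (UMIs, each standing for 1 captured RNA molecule): a droplet barcode with at least 200 genes and at most 10% mitochondrial UMIs was taken where Acta1, Ckm, Tnnt3, Mylpf and Myh4 together had at least 20 UMIs and at least 2% of its UMIs, and where C1qa, C1qb and C1qc together had fewer than 5. This gave 257 barcodes of 7559 that passed the gene and mitochondrial limits, and of 8499 deposited. Of these, 256 were in the sham library and 1 in the JVL-14 library, so gene levels are described within sham. The levels of the rule genes chose these barcodes and are given as a description.

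The 2 libraries hold dura of female mice, 1 from sham operated animals (sham) and 1 from animals whose jugular veins had been ligated 14 days before (JVL-14). The interval after the sham operation and the mouse strain were not given in the sources used here. Dura peeled from skullcaps of perfused mice was, per the labels' protocols, digested for 20 minutes with collagenase D and DNase I and passed through a 35 μm strainer, which limits the size of what can pass. Cells of 2 meninges were combined per well, viable singlets were sorted, and 20000 cells were loaded per 3′ end library. With 1 library per group and no count of animals, intervals below cover counting error only, no test between groups was possible, and condition, dissection and library cannot be told apart.

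Skeletal muscle is made of long multinucleate fibres packed with sarcomeres, in which myosin filaments pull on actin filaments anchored at the Z-disc. Nerve impulses release calcium from the sarcoplasmic reticulum, calcium binds troponin, and tropomyosin then moves aside to let myosin bind. Fibres are classed as slow or fast by the myosin heavy chain they make: Myh7 marks slow type I fibres, and Myh2, Myh1 and Myh4 mark the fast types IIA, IIX and IIB. The dura itself is a connective tissue sheet and holds no skeletal muscle of its own.

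Promoters of 3 of these genes are printed as the 250 bases before the start of transcription, from RefSeq on GRCm38.p6, written 5′ to 3′ on the gene's strand. Mylpf, the fast regulatory light chain and a rule gene, stands for the contractile genes that were high together, and Myh1 and Myh2 are the neighbouring heavy chain genes whose balance differed between barcodes. Capitals mark the letters CAGCTG (an E-box, the kind of site bound by the MyoD family), a match to the MEF2 motif, or TATAAA. Mylpf lies at chr7:127211358-127211607 (plus strand), Myh1 at chr11:67199852-67200101 (plus strand) and Myh2 at chr11:67170777-67171026 (plus strand).
Mylpf: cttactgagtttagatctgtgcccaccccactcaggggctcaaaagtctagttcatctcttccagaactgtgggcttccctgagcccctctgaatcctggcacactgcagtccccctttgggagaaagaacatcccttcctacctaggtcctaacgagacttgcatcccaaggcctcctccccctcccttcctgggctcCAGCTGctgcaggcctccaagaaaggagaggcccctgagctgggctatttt
Myh1: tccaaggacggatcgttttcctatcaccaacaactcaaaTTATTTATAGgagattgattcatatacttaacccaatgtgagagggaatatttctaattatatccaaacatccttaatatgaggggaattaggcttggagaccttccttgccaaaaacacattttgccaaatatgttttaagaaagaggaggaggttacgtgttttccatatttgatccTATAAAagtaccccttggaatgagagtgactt
Myh2: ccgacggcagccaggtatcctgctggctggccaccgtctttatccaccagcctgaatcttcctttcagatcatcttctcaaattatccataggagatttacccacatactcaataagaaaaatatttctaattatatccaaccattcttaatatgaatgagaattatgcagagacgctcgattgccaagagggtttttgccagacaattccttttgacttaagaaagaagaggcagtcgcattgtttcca
In the Mylpf window CAGCTG stood with its first base at -51, counted back from the start. The Myh1 window held the MEF2 match at -211 and TATAAA at -32, and the Myh2 window held none of the 3. The E-box letters, searched on both strands, were in 3 of 8 windows of the fast contractile genes with an entry (8 of 12 genes matched), in 7 of 18 windows of the calcium handling genes (15 of 24 genes matched) and in 5 of 20 windows of the giant and Z-disc genes (16 of 25 genes matched). Among all 32851 windows of this length they were in 13.0%. The MEF2 motif, searched on both strands, was in 2 of the 8 fast, 2 of the 18 calcium and 5 of the 20 giant and Z-disc windows, and in 2.92% of all windows. TATAAA, searched on the given strand, was in 2 of the 8, 1 of the 18 and 0 of the 20, and in 7.59% of all windows. A match is a run of letters, not a measured binding site.

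In sham, 256 of 4951 filtered barcodes were skeletal muscle (5.17%, exact Clopper-Pearson interval 4.57% to 5.82%), holding 2.42% of UMIs. In JVL-14, 1 of 2608 was (0.0383%, up to 0.213%). The share in sham was 135 times that in JVL-14, with an exact conditional binomial interval of 24.0 to 5347. Removing the C1q limit would have added 5 barcodes in sham and 2 in JVL-14, and removing the mitochondrial limit 1 in each. The libraries held 33996641 and 18796260 UMIs, and they shared 2 barcode sequences, neither of them a skeletal muscle barcode. Of the 256, 13 were among the 5% of sham barcodes with the highest doublet scores.

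**Figure D1:**
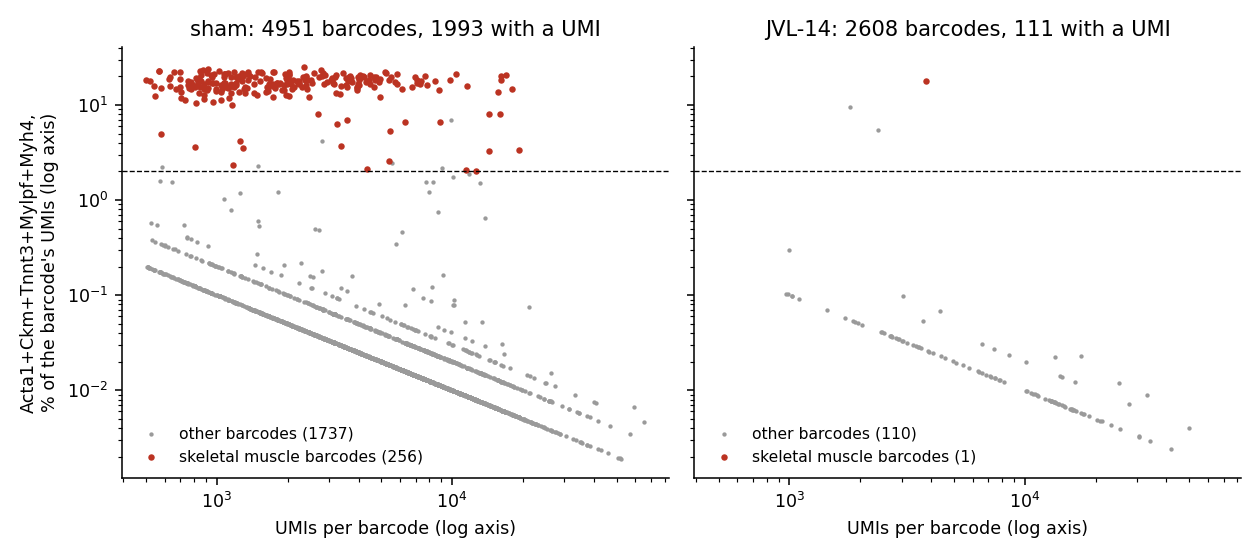
Share of each barcode's UMIs from the 5 rule genes (vertical, log axis) against its UMIs (horizontal, log axis) in sham (left) and JVL-14 (right). Points are barcodes with at least 1 such UMI, red points are the 256 and 1 skeletal muscle barcodes, and the dashed line is the 2% limit. The sham points form a dense band between 10% and 25.1%, and 20 lie between the 2% limit and 10%.

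The label held against genes that the rule did not use. Other fast contractile transcripts and Tpm2, 10 genes outside the rule, made up 10.1% of UMIs in the sham skeletal muscle barcodes and 0.034% in the other 4695 sham barcodes. Markers that define cardiac muscle were near 0: 7 of 9 had no UMI, among them Myh6, Nppa, Tnni3 and Tnnt2, and Actc1 had 8. The smooth muscle genes Myh11, Tagln and Cnn1 had 0 UMIs, and Acta2 had 29. The satellite cell genes Pax7, Pax3, Myf5 and Calcr, which mark the stem cells lying beside fibres, were also at 0.

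The skeletal muscle barcodes were small in RNA content. They held from 502 to 19330 UMIs with a median of 1799.5, and a median of 659.5 genes. The other sham barcodes had medians of 4985 UMIs and 1757 genes. The rule genes took a median of 16.96% of a barcode's UMIs (interquartile range 14.95% to 19.5%, highest 25.1%). By range, 11 barcodes lay at 2% to 5%, 9 at 5% to 10%, 184 at 10% to 20% and 52 at 20% to 40%. The 3 barcodes just inside the 2% limit had 2.03%, 2.08% and 2.10%, and the 3 just outside had 1.87%, 1.73% and 1.55%.

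Among the rule genes, Acta1, the actin of the thin filament, had a median of 157.5 UMIs per barcode (lowest 13, highest 2048), or 9.18% of the barcode's UMIs. Mylpf had a median of 51 UMIs (2 to 547). Tnnt3, the fast troponin subunit that holds troponin on tropomyosin, had 43 (2 to 466), and Ckm, the muscle creatine kinase that recharges ATP, had 39.5 (2 to 503). Each of these 4 was found in all 256 barcodes. Myh4, the heavy chain of type IIB fibres, had no UMI in any deposited barcode of either library. The rule therefore worked on 4 genes, and why Myh4 was at 0 was not tested.

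The 20 barcodes with under 10% of UMIs from the rule genes differed from the other 236 in what else they held. At least 20 UMIs from the marker list of another cell type were present in 11 of the 20 and in 0 of the 236. Median depth was 4853.5 UMIs in the 20 and 1739 in the 236, so this fixed count was easier to reach in the 20. The 8 fibroblast genes summed to 12786 counts per 1e6 UMIs (CPM) in the 20, to 171 CPM in the 236 and to 13351 CPM in the other sham barcodes. Of the neutrophil list's UMIs in the skeletal muscle barcodes, 99.3% lay in the 20, and 1 barcode alone held 5294 of 7251. Of the macrophage list's UMIs, 88.3% lay there. The erythroid and olfactory neuron lists did not follow this split: erythroid genes were at 296 CPM in the 236 and 242 CPM in the 20, against 36366 CPM in the other sham barcodes. How many of the 20 held 2 cells, or a cell with attached fragments, was not tested.

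Levels below are UMIs of a gene summed over barcodes, as CPM. Libraries were made from 3′ ends, and levels were not divided by transcript length. Whether long transcripts gave more than 1 UMI each was not tested. A gene was counted as higher or lower where the set with more of it had at least 30 UMIs and 50 CPM and the ratio of CPM was at least 2-fold. Of 3557 genes that could be so counted, 647 were higher in the skeletal muscle barcodes (18.2%) and 1888 were lower (53.1%), and the median log2 ratio was -1.21. The contrast is the one the rule made, so nothing is read from these counts about the muscle lists, and they describe the makeup of the barcodes. Without the 20 barcodes of low rule gene share, which then stood among the other barcodes here and below, the counts were 708 and 1994.

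A few transcripts took much of the RNA. The 10 most abundant genes held 26.3% of UMIs and the top 20 held 33.4%. Acta1 alone reached 82637 CPM, followed by Tnnc2, the fast calcium-binding troponin, at 27466 CPM, Mylpf at 26001, Tnnt3 at 23030 and Tpm1, a tropomyosin, at 22940. Ckm stood at 22337 CPM, Myl1, the fast essential light chain, at 15261, Tpm2 at 14818, Aldoa at 14637 and Tnni2, the fast inhibitory troponin, at 13665. Of these 10, 8 are thin or thick filament proteins, and Ckm and Aldoa serve energy supply.

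Of the 12 fast contractile isoforms, 11 were counted and 11 were higher, with a median log2 ratio of 9.66, and Myh4 was the one at 0. Tnnc2 was 905-fold above the other sham barcodes (847 to 967), Myl1 938-fold (858 to 1028) and Tnni2 565-fold (525 to 609). Actn3, the Z-disc actinin of fast fibres, stood at 1087 CPM, and Myoz1, its fast-fibre partner, at 4457 CPM. Mybpc2, the fast myosin-binding protein, had 360 CPM in 118 barcodes. Tpm1 showed the smallest ratio of the 11, 120-fold (117 to 124), with 191 CPM in the other barcodes.

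The slow isoforms were mostly not found. Myh7, Myl2, Myl3, Tnni1, Tnnc1 and Myh7b had 0 UMIs in 768516, which allows up to 3.904 CPM for each by a limit of 3 counts, and Tnnt1 had 3 UMIs. Tpm3 was lower than elsewhere, with 29.9 against 316 CPM. The exceptions were Mybpc1 and Myoz2, named for slow fibres. Mybpc1 had 708 UMIs in 177 barcodes (921 CPM, 390-fold, 306 to 504), and Myoz2 had 333 UMIs in 133 barcodes (433 CPM against 0.356 CPM elsewhere). In the rest of the sham library, Myh7 was found in 17 barcodes, 1 of which had at least 20 UMIs of the core slow genes.

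Of 25 genes for giant and Z-disc proteins, 19 were counted and 19 were higher (median log2 ratio 8.26). The most abundant were Tcap, which caps titin, at 4896 CPM, Des, the desmin intermediate filament, at 4782 CPM, and Cryab, a small chaperone that binds desmin, at 3448 CPM. Csrp3, Myot and Ldb3, all Z-disc proteins, stood at 1124, 1050 and 284 CPM. Ttn, the titin spring, was at 874 CPM, but 1 barcode held 230 of its 672 UMIs. Its log2 ratio was 5.52, and 3.95 without the 20 barcodes of low rule gene share. Neb, the ruler of the thin filament, was at 625 CPM. The nemaline myopathy genes Klhl41, Lmod3 and Klhl40 were at 268, 148 and 53.4 CPM. Myom2 of the M-band had no UMI, and Myom1 had 39.

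Of 24 calcium handling genes, 17 were counted, 16 were higher and 1 was lower. Atp2a1, the fast-fibre calcium pump that refills the reticulum, was at 4885 CPM, while its slow and housekeeping relative Atp2a2 was the one lower gene, with 28.6 against 126 CPM. Pvalb, the calcium buffer of fast fibres, stood at 1041 CPM in 206 barcodes. The pump inhibitors split: Mrln was at 234 CPM, Sln had 3 UMIs and Pln had 0. Release and sensing genes were found at lower levels, with Ryr1, the release channel, at 67.7 CPM, Cacna1s, its voltage sensor, at 97.6, Casq1, the store protein, at 234 and Cacng1 at 488. Among membrane genes, the muscle sodium channel Scn4a and the chloride channel Clcn1 had 2 UMIs each.

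Of 22 glycogen and glycolysis genes, 18 were counted, with 16 higher and 0 lower. The muscle forms had large ratios: Pgam2 stood at 2792 CPM (659-fold, 552 to 793), Eno3 at 3526 CPM (392-fold, 347 to 445) and Pygm, which breaks down glycogen, at 308 CPM (34.1-fold, 28.5 to 40.6). Forms shared with other tissues had smaller ratios, as with Gapdh at 13.7-fold and Ldha at 4.94-fold, and Pkm and Gpi1 stayed under 2-fold (1.79 and 1.84). In the phosphate transfer list, Ckm, Ckmt2, Ak1 and Adssl1 were higher and Ckb, the brain form of creatine kinase, was lower at 57.3 against 590.5 CPM.

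Of 26 nuclear genes for oxidative fuel use, 22 were counted, with 19 higher and 0 lower. Their median log2 ratio was 1.76. Slc25a4, the muscle ADP/ATP carrier, stood at 11170 CPM, Mb, myoglobin, at 5159 CPM and Cox6a2, a muscle subunit of cytochrome oxidase, at 4881 CPM. The muscle subunits Cox8b and Cox7a1 were at 2593 and 1338 CPM, and Fabp3, a fatty acid carrier, at 846 CPM. Transcripts made by the mitochondria themselves went the other way. Of 13 such genes, 12 were counted and 12 were lower, with a median log2 ratio of -1.96, as with mt-Cytb at 1054 against 4509 CPM and mt-Co1 at 895 against 3391 CPM. Among all 3557 genes counted, 18.2% were higher and 53.1% lower, and the median log2 ratio was -1.21. The rule capped mitochondrial UMIs at 10% in both sets.

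**Figure D2:**
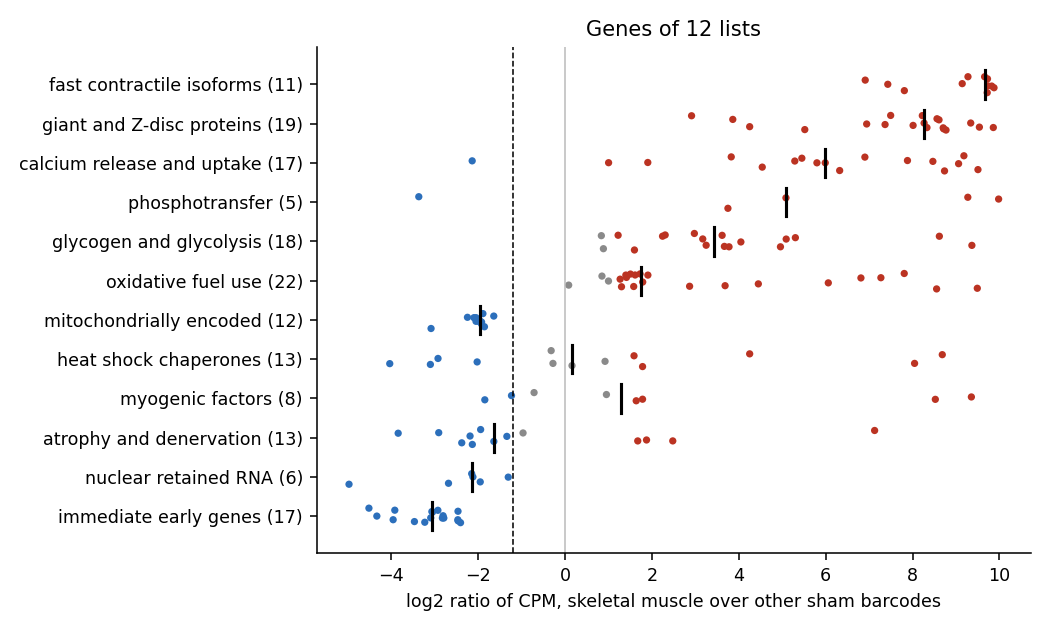
Log2 ratio of CPM in the 256 sham skeletal muscle barcodes over the other sham barcodes (horizontal) for the genes of 12 lists, with the number of genes counted in brackets. Red points were at least 2-fold higher, blue at least 2-fold lower and grey between, black bars are list medians, and the dashed line is the median of 3557 genes (-1.21). Fast isoforms lie furthest right (median 9.66), oxidative genes of the nucleus at 1.76 and mitochondrially encoded genes at -1.96.

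Myosin heavy chain UMIs numbered 1080 in the sham skeletal muscle barcodes. Myh4 gave none here or in any other barcode of either library, and why was not tested. The shares are therefore of the heavy chains that were counted, and they do not show whether type IIB fibres were present. Myh2 gave 562 (52.0%, 49.0% to 55.1%), found in 148 barcodes. Myh1 gave 396 (36.7%, 33.8% to 39.6%), found in 118 barcodes. Myh8, the perinatal heavy chain, gave 121 (11.2%, 9.38% to 13.2%), found in 64 barcodes. The embryonic Myh3, the slow Myh7, the extraocular Myh13 and the cardiac Myh6 had 0 UMIs, which allows each at most 0.278% of heavy chain UMIs, and Myh15 had 1. Of 64 barcodes with Myh8, 2 had neither Myh1 nor Myh2. The long noncoding RNA 2310065F04Rik (linc-Myh) of the same gene cluster had 127 UMIs in 87 barcodes, and Myhas had 3.

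Heavy chain counts were low per barcode, with a median of 2 UMIs, and 43 barcodes had none. Among the 30 barcodes with at least 10, Myh2 led in 19, Myh1 in 10 and Myh8 in 1. Some of the 30 were of low rule gene share, at 3.25%, 3.37%, 3.73%, 6.65% and 7.93% of UMIs. The barcode led by Myh8 was the one at 3.73%, and it also held 230 Ttn UMIs and 20.0% Malat1. Myh1 and Myh2 stood together in 18 of the 30. The leading chain had at least 80% of heavy chain UMIs in 9 of the 19 and 5 of the 10. Single barcodes show the range: one had 31 UMIs of Myh2, 0 of Myh1 and 1 of Myh8, another had 17 of Myh1 and 0 of both others, and one more had 7 of Myh1, 31 of Myh2 and 16 of Myh8. UMIs from free RNA or from a second fibre in these barcodes were not separated.

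**Figure D3:**
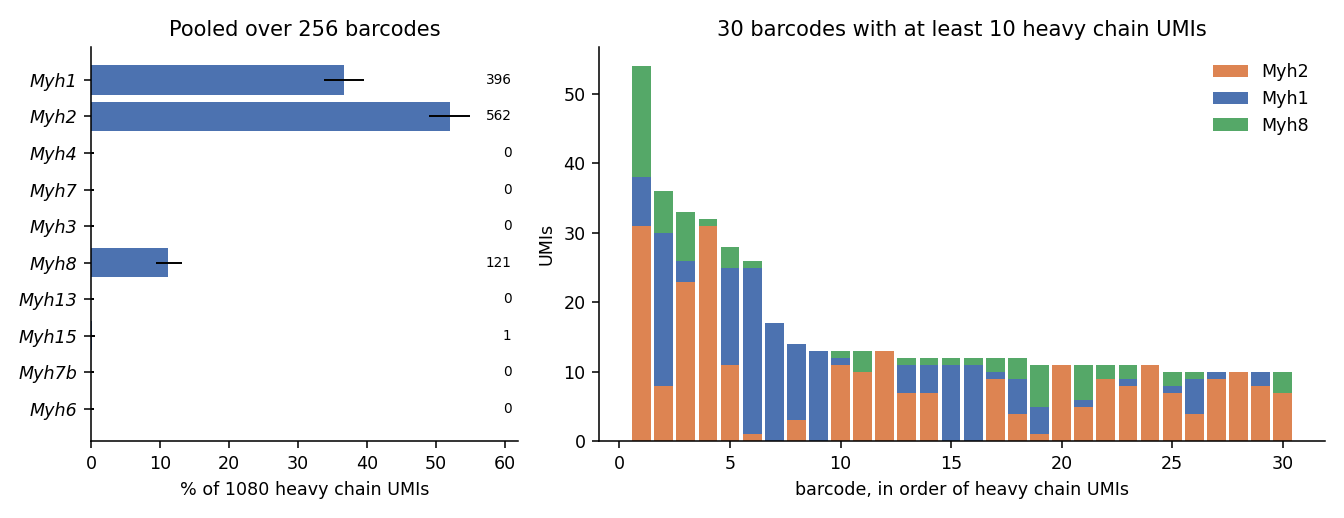
Left, share of 1080 heavy chain UMIs per gene with exact 95% intervals and UMI counts at the right edge. Right, UMIs of Myh2, Myh1 and Myh8 stacked for the 30 barcodes with at least 10 heavy chain UMIs, of which Myh2 led in 19, Myh1 in 10 and Myh8 in 1. The barcode led by Myh8 had 3.73% of its UMIs from the rule genes.

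Heavy chain UMIs varied between barcodes more than those of most muscle genes. Over the 236 barcodes with at least 10% rule gene UMIs, the variance of a gene's UMIs was set against that expected from counting at each barcode's depth, a ratio that is 1 for counting error alone. The median over 77 genes with at least 200 UMIs was 1.57, and 46 were under 2. Myh1 stood at 5.67 and Myh2 at 3.86. Among nuclear genes of about as many UMIs, Ttn had 3.17, Neb 2.19 and Lmod2 1.40. Mitochondrially encoded genes of about as many UMIs were above the heavy chains or near Myh1, with mt-Cytb at 9.86, mt-Atp6 at 8.10, mt-Co3 at 6.41, mt-Co1 at 6.15 and mt-Co2 at 5.62. The ratio grows with a gene's level, and Acta1, the most abundant, had 12.6, while Tnnc2, at 19805 UMIs, had 2.38.

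To see what went with the heavy chain, 40 barcodes led by Myh2 were set beside 22 led by Myh1, each with at least 5 heavy chain UMIs and at least 10% rule gene UMIs. Median depth was 4004.5 and 4127 UMIs, the pooled totals were 226456 and 104928 UMIs, and the rule genes took a median of 17.2% and 17.1%. The 2 sets also differed in mitochondrial share, with medians of 0.0275% and 0.172%, and 22 of the 40 and 16 of the 22 had no Malat1 UMI. The part of these in the differences below was not tested. Of 705 genes, 18 were at least 2-fold higher in the Myh2-led barcodes (2.55%) and 7 lower (0.993%), with Myh2 and Myh1 among them by choice. None of the 9 fast contractile genes counted passed 2-fold, nor of 17 giant and Z-disc, 12 calcium, 14 glycolytic or 18 oxidative genes. Myh1 and Myh2 were left out of the list counts. In the slow contractile list 1 of 2 genes was higher (Myoz2), and in the phosphate transfer list 1 of 4 (Ckmt2). Acta1 stood at 94129 and 87460 CPM, Atp2a1 at 5220 and 5632 CPM and Pvalb at 1095 and 1334 CPM.

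The largest difference outside the heavy chains was in 9430073C21Rik, a noncoding RNA that the GENCODE annotation of GRCm38 places between Myh2 and Myh1, on the opposite strand, overlapping the end of Myh2 and starting a short way before Myh1. It had 5 UMIs in 3 of the Myh2-led barcodes and 34 in 13 of the Myh1-led ones, 14.7-fold lower in the former (ratio 0.0681, 0.0208 to 0.175). Myh2 itself had 337 UMIs in the Myh2-led barcodes and 33 in the Myh1-led ones. No source used here says whether counting used strand, and whether reads of Myh2 in the overlap were counted for 9430073C21Rik was not tested. Ckmt2, the mitochondrial creatine kinase, was 2.89-fold higher with Myh2 (106 against 17 UMIs, 1.72 to 5.14), and Myoz2 2.33-fold (136 against 27 UMIs, 1.54 to 3.67). Polb and Tm2d1 were 4.36-fold and 3.80-fold higher on 47 against 5 and 41 against 5 UMIs. mt-Co2, mt-Co1 and mt-Atp6 were lower, at ratios of 0.439, 0.482 and 0.476, beside the gap in mitochondrial share given above. The log2 ratio of mt-Co2 was -0.34 with each barcode weighted equally, under 2-fold, and turned to 0.50 where the leading chain had to hold at least 80% of heavy chain UMIs. The direction of 9430073C21Rik, Ckmt2 and Myoz2 held in the 4 other ways of forming the 2 sets, with log2 ratios of -4.31 to -3.23, 0.90 to 2.04 and 1.04 to 1.93, so that Ckmt2 was under 2-fold where the leading chain held at least 80%. These ways draw on overlapping barcodes and are not independent. In the set with more of each gene, 1 barcode held 17.6%, 20.8% and 12.5% of its UMIs, in the same order.

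Nuclear and mitochondrial RNA was scarce in most skeletal muscle barcodes. Malat1, a noncoding RNA kept in the nucleus, had no UMI in 172 of 256, so 32.8% had it, against 83.8% of the other sham barcodes without those that were mostly haemoglobin. With each barcode thinned to 500 UMIs, the shares were 16.8% and 76.9%. In the 94 barcodes dominated by haemoglobin, as red cells without a nucleus would be, 78.7% had a Malat1 UMI, and 36.2% after thinning. Mitochondrial UMIs were at a median of 0.118% against 2.38% in the same other barcodes. The 6 counted genes of the nuclear RNA list, with Xist, Neat1 and Kcnq1ot1 among them, were lower, beside 53.1% of all genes counted. The log2 ratio of Malat1 was -2.12 over the 256 barcodes and -7.87 over the 236, and that of Xist -2.68 and -6.84.

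Malat1 followed the share of rule genes. In the 236 barcodes with at least 10%, it was at 166 CPM and Xist was found in 1. In the 20 with less, Malat1 was at 49700 CPM and Xist was found in 12, beside the fibroblast and leukocyte genes given above. In 8 barcodes Malat1 made up at least 5% of UMIs, and these 8 held 342 of the 672 Ttn UMIs (50.9%), 6676 CPM against 406 CPM in the 172 without Malat1. Neb was at 1972 against 494 CPM in the same sets, and Acta1 at 23425 against 95684 CPM.

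The 8 were not alike. In 5 of them Ttn had 14, 230, 46, 31 and 12 UMIs, with Malat1 at 31.6%, 20.0%, 19.5%, 14.0% and 8.61% of UMIs. In the other 3, each of 12586 to 14350 UMIs, Ttn had 0, 9 and 0 and Malat1 was at 7.76%, 7.60% and 6.97%. High titin thus stood with high Malat1 in 5 barcodes that had between 580 and 3582 UMIs.

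**Figure D4:**
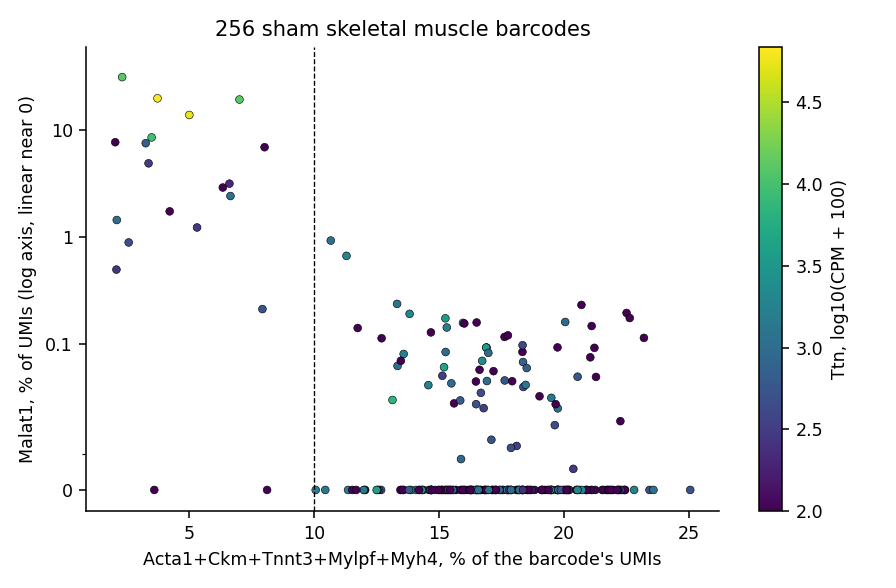
Malat1 as a percent of UMIs (vertical, log axis with a linear part near 0) against the rule genes' percent (horizontal) in the 256 sham skeletal muscle barcodes, coloured by Ttn. Of these, 172 lie at 0, nearly all right of the dashed line at 10%, and the 8 with at least 5% Malat1 lie left of it, 5 of them in the lighter colours of high Ttn.

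Genes of the early response to stimulation were low. Of 19 immediate early genes, 17 were counted and 17 were lower, with a median log2 ratio of -3.05. Among all genes counted, 53.1% were lower and 18.2% higher, with a median of -1.21. Fos was at 320 against 2241 CPM, Junb at 94.99 against 1437 and Egr1 at 89.8 against 751, and Fos was found in 34 barcodes. The log2 ratio of Fos moved from -2.81 to -5.94 without the 20 barcodes of low rule gene share. The heat shock list had 5 of 13 higher, 4 lower and 4 between, with a median log2 ratio of 0.16, above that of all genes counted. The higher were small chaperones: Hspb6 at 2221 CPM (264-fold, 232 to 302), Hspb7 at 186 CPM, Hspb1 at 671 CPM, Hspb8 at 144 CPM and Cryab. The lower were the stress-induced Hspa1a, Dnajb1, Dnaja1 and Hsp90aa1.

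Regulators of muscle were found at low levels. Of 16 myogenic factors, 8 were counted, 4 were higher, 2 were lower and 2 between, where 18.2% of all genes counted were higher and 53.1% lower. The 2 lower and the 2 between are not named here. Myf6, the MyoD family member of mature fibres, was at 169 CPM in 74 barcodes and Vgll2 at 83.3 CPM. Mef2c was at 444 against 129 CPM and Tbx15, a factor of fast fibres and of head development, at 74.2 against 23.8 CPM. Myod1 had 30 UMIs in 23 barcodes, under the minimum of 50 CPM, and Myog had 4 UMIs, so neither was counted. In the atrophy and denervation list, 4 of 13 were higher and 8 lower, beside 18.2% and 53.1% of all genes counted, and nothing particular to the list is read from these counts. The ubiquitin ligases of wasting, Trim63 and Fbxo32, were among the higher at 76.8 and 82.0 CPM against 0.550 and 25.7, with Bnip3 and Fbxo31, while Mt1, Mt2, Cdkn1a, Ctsl, Foxo1, Ddit4, Fkbp5 and Runx1 were lower. The fetal receptor subunit Chrng was at 0.

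Genes of the fibre's junctions were scarce. No gene of 13 at the neuromuscular junction reached the minimum, with 54 UMIs in all, of which Rapsn gave 23 and Chrna1 gave 7, and 5 of 5 myotendinous junction genes were at 0. Of 13 dystrophin complex genes, 5 were counted, 3 were higher and 2 were lower, with a median log2 ratio of 2.32, and without the 20 barcodes of low rule gene share 4 were higher and 1 was lower. Cav3, of the muscle caveolae, was among the higher at 138 CPM, Dag1 and Utrn were the lower (11 and 6 UMIs), and Dmd, dystrophin itself, had 21 UMIs in 8 barcodes.

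Position genes gave few UMIs. The 16 Hox genes listed, which pattern trunk and limb and not the face and jaw, were at 0, a limit of 3.904 CPM each, and were at or near 0 in the other sham barcodes too. Of 10 head muscle position genes, 5 were at 0, and the 10 summed to 69.0 CPM against 86.8 CPM in the other sham barcodes. Tbx1, a head muscle factor, had 19 UMIs in 17 barcodes (24.7 against 2.20 CPM elsewhere), and Lhx2 had 20 (26.0 against 55.5 CPM). Tbx1 was below the minimum, Lhx2 was counted as lower, and the muscle of origin was not determined.

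Outside the fixed lists, the 20 genes with the highest ratios were led by Trim54, a ligase of the sarcomere, at 332 CPM (1140-fold, 591 to 2522), Dusp29 at 112 CPM and Dhrs7c, a reticulum enzyme, at 83.3 CPM. Hspb3 had 62 UMIs against 2 elsewhere (interval of the ratio 331 to 10531) and Lrrc30 had 58 against 1 (403 to 93768). Fitm1, Smtnl1, Ppp1r27 and Sh3bgr were the more abundant ones, at 578, 411, 390 and 597 CPM. Popdc3, Abra, Sypl2, Mylk2, Klhl31, Art1, Itgb1bp2, Ppp1r3a, Smyd1, Txlnb and Tpm2 complete the 20. Rpl3l, a ribosomal protein of striated muscle, was named after its value was seen, at 959 CPM in 208 barcodes (560-fold, 423 to 754). The 10 with the lowest ratios were led by the antigen presentation gene H2-Aa and the protease gene Ctss, 105-fold and 78.1-fold lower, followed by Plac8, Ms4a6c, Ccl2, Mgl2, Ccn3, Wfdc17, H2-DMa and Rtn1.

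The 1 skeletal muscle barcode of JVL-14 lay within the range of those in sham. It had 3799 UMIs over 1113 genes, with 17.7% from the rule genes, between the sham quartiles. Acta1 had 287 UMIs, Tnnc2 148, Tnnt3 142, Ckm 125 and Mylpf 117. Myh1 had 13 UMIs and Myh2, Myh8, Malat1 and Xist had 0, and no mitochondrial UMI was found.

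Muscle transcripts were also spread over the other barcodes, at a higher level in sham. In barcodes that were not skeletal muscle, the rule genes summed to 156 CPM in sham (exact Poisson interval 152 to 161) and 25.8 CPM in JVL-14 (23.4 to 28.3), and 37.0% and 4.22% of barcodes had at least 1 such UMI at median depths of 4985 and 4718 UMIs. In JVL-14, 5 barcodes held 71.7% of these UMIs, and without them the level was 7.33 CPM. In sham, 108.5 CPM remained without the top 5. Fibroblasts, taken as barcodes with at least 20 UMIs of the fibroblast list, had 117 CPM in sham. In JVL-14 they had 4.87 CPM, 24.0-fold less (16.5 to 36.2), and without the top 5 barcodes 68.4 and 2.79 CPM.

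Olfactory neurons, gated the same way, had 63.0 and 3.87 CPM (16.3-fold, 7.67 to 41.2), and without the top 5 barcodes of each library 54.7 and 1.14 CPM. Barcodes dominated by haemoglobin had 112 and 9.53 CPM (11.7-fold, 6.50 to 23.2). In sham 1 of these last barcodes held 90 of 139 rule gene UMIs, and without the top 5 the levels were 33.5 and 5.11 CPM. Neutrophils had 89.6 and 2.81 CPM, the latter from 3 UMIs (31.9-fold, 10.8 to 156), and without the top 5 barcodes 40.8 and 0 CPM. B cells had 369 and 15.7 CPM, and without the top 5 barcodes 103 and 11.98 CPM. Macrophages and monocytes had 209 and 51.0 CPM, and without the top 5 barcodes 111 and 4.11 CPM. Each of these 6 sets had more muscle RNA in sham than in JVL-14. The sets can share barcodes and are not independent: in sham the highest barcode had 691 rule gene UMIs in both the macrophage and the B cell set. Barcodes left out of the skeletal muscle ones only by the C1q limit were counted here too.

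**Figure D5:**
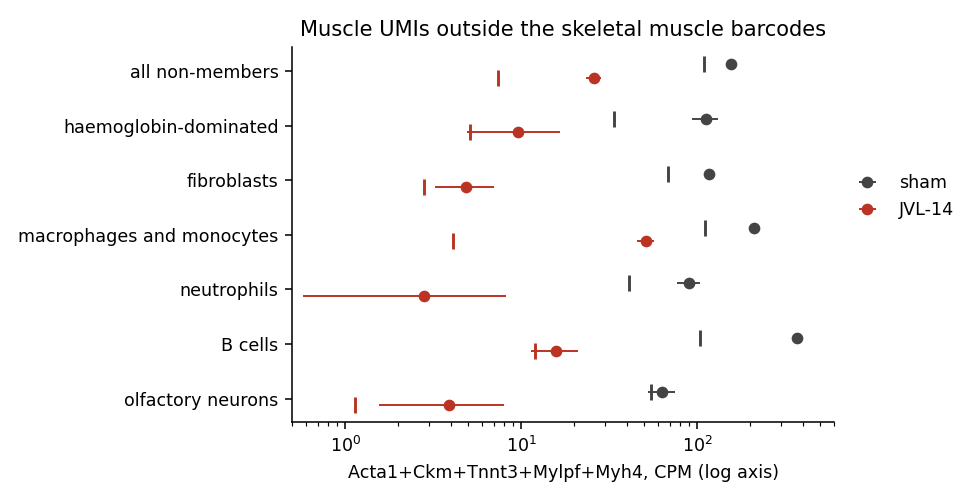
Rule gene CPM (horizontal, log axis) in barcodes that were not skeletal muscle, overall and for haemoglobin-dominated barcodes and 5 marker gates, in sham (grey) and JVL-14 (red). Points are pooled CPM with exact 95% Poisson intervals and ticks are the level without the 5 barcodes with most such UMIs (no tick where this was 0), and in all 7 rows sham lies to the right of JVL-14, as with fibroblasts at 117 and 4.87 CPM.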

How the data were processed

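The authors deposited UMI counts per gene and barcode for 1 sham and 1 JVL-14 library, written by Cell Ranger 8.0.0 per the file headers. Per the submitters' processing notes the build was mm39, with the annotation not given in the sources used here. Each deposited barcode had at least 500 UMIs. Left out were 266 and 244 barcodes with fewer than 200 genes and 278 and 152 with more than 10% mitochondrial UMIs. Doublets were kept, and leaving out the top 5% of Scrublet scores (scanpy 1.11.5) was an alternative. Counts were not normalised: UMIs were summed and given per 1e6 (CPM), with exact 95% intervals (scipy 1.17.1), which cover counting error only. On simulated counts with counting error alone, the comparison recovered known changes in both directions. These changes were larger than 2-fold and were set in genes of higher counts. The simulation therefore does not bear on changes near 2-fold, genes with few UMIs or spread beyond counting error. The members and gene lists were chosen with earlier results of these data known. Named genes are those of 41 lists, the 20 highest and 10 lowest ratios outside them (at least 30 UMIs and 50 CPM in the muscle barcodes for the highest, detected in at least 10%, no mt-, ribosomal, haemoglobin or immunoglobulin genes) and the 10 highest and 10 lowest of the heavy chain comparison. The planned comparison of Myh2- with Myh4-led barcodes could not be made, as Myh4 was at 0. Myh2 against Myh1, at 5 heavy chain UMIs and 10% rule gene share, was chosen after seeing the data. Promoters came from RefSeq (GRCm38.p6), not the files' build. Some genes of the lists are not reported here.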

Additional observations from a re-analysis of the deposited data

How the results depend on the processing

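The number of skeletal muscle barcodes ranged from 174 to 262 in sham and from 1 to 3 in JVL-14. The sham share was 5.84% with a mitochondrial limit of 5% and 3.82% with at least 500 genes. JVL-14 had 2 such barcodes with a mitochondrial limit of 20% or with no limit, and 3 with no C1q limit. Among gene lists, 1 dystrophin complex gene was lower, not 2, at a rule gene share of at least 10%, and 1 oxidative gene was lower, not 0, with each barcode weighted equally. That weighting gave Myh8 8.52% of heavy chain UMIs. The 172 barcodes with no Malat1 UMI gave Myh1 42.0%, Myh2 48.9% and Myh8 8.90%, a setting chosen after seeing the data. For genes named as higher or lower, 253 in number, direction held in all 1771 checks over 7 settings. All settings drew on the same library and on barcodes chosen by muscle genes, so the checks are not independent. Much of the direction was fixed by the rule, and their number is no support for it. Sizes often moved out of the counting interval of the ratio: among all named genes, 142 did and 125 did not at a rule gene share of at least 10%, 178 and 89 over the barcodes with no Malat1 UMI, and 124 and 143 without the top 5% of doublet scores.

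In the comparison of Myh2- with Myh1-led barcodes, all of whose settings were chosen after seeing the data, 12 genes and not 7 were lower with at least 3 heavy chain UMIs. With each barcode weighted equally 31 and not 18 were higher. With the barcodes of low rule gene share put back, 30 were higher and 65 lower, and the log2 ratio of Cd63 turned from 1.80 to -0.61. That of mt-Co2 turned from -1.19 to 0.50 where the leading chain held at least 80%. The causes were not tested. The comparison with Myh4-led barcodes, at 10 or 20 heavy chain UMIs, with a leading share of 80% or with equal weights, was not run, since Myh4 had no UMI. No paired analysis was possible because each group has 1 library. Depth limits heavy chain typing, with a median of 2 such UMIs per barcode.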
